A study of Mus musculus with 11 samples.

Results

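Chromogranins A and B (Chga, Chgb), secretogranins II, III and V (Scg2, Scg3, Scg5), neuropeptide Y (Npy), galanin (Gal), the CART prepropeptide (Cartpt) and proenkephalin (Penk) are cargo of the secretory granules of chromaffin cells, the catecholamine cells of the adrenal medulla. The 9 genes were chosen by name, as 5 granins and 4 neuropeptide precursors, with earlier results of these data known. All 9 were on the array, with 11 of its 41174 probes, among 17174 genes that could be named. The study compared fetal adrenal cells of mice that lack the steroidogenic acute regulatory protein with cells of wild-type mice. The knockout group was 4 male Star-/- fetuses and the wild-type group 7 Star+/+ fetuses, 3 labelled male and 4 female, all at embryonic day E17.5 to E18.5. In both groups the adrenal glands were dissociated, cells positive for enhanced green fluorescent protein were collected by flow cytometry, and RNA of each mouse was amplified and hybridised to a single-colour array of its own. The promoter that drives the fluorescent protein, and the part of Star that is deleted, are not given in the sources used here.

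Granins are acidic proteins that condense in the trans-Golgi network and help to form the dense core of secretory granules, where they bind calcium, catecholamines and other cargo. They are also prohormones: convertases in the granule cut them, and the neuropeptide precursors stored beside them, into peptides released together with adrenaline and noradrenaline. Chromaffin cells descend from the neural crest, many of them through Schwann cell precursors, and settle inside the adrenal cortex before birth. Glucocorticoids from that cortex are known to sustain their synthesis of adrenaline through Pnmt, the last enzyme of the pathway. Granin genes are also classical targets of cyclic AMP signalling through the cyclic AMP response element (CRE), the palindrome TGACGTCA.

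The start regions of the 4 members that carry the CRE or its core within the 150 bases before the start of transcription are shown. They were chosen for display with the differences below known. The granins among them had the largest of these, none past the threshold, while Cartpt differed by 0.19. A link between motif and difference was not tested. Promoters of 8 of the 9 members were in the RefSeq table of mouse build GRCm38.p6, each a window of 250 bases before to 50 after the annotated start. Each line gives the 150 bases before the start, in the direction of transcription, with the motif in capitals: TGACGTCA in Chgb, Scg2 and Cartpt, and the core TGACGT alone in Chga.
Chga: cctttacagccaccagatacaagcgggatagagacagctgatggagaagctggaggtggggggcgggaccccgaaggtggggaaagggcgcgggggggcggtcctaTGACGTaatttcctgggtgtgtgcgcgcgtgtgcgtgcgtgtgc
Chgb: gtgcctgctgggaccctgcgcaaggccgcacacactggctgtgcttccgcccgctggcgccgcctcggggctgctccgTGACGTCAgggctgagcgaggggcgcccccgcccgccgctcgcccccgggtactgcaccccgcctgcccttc
Scg2: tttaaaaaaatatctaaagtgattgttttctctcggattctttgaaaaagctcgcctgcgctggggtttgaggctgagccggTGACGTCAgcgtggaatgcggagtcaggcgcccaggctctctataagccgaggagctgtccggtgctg
Cartpt: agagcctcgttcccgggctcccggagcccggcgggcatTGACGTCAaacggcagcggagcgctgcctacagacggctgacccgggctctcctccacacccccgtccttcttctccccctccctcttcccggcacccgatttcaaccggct
The Chga sequence is chr12:102554791-102554940 on the plus strand and the Chgb sequence chr2:132781492-132781641 on the plus strand. The Scg2 sequence is chr1:79440027-79440176 on the minus strand and the Cartpt sequence chr13:99900684-99900833 on the minus strand. The palindrome began 72 bases before the start in Chgb, 68 in Scg2 and 112 in Cartpt, and the core began 44 bases before the start in Chga. Searched on both strands, TGACGTCA was held by 3 of the 8 member promoters and by 588 of all 32851 promoters in the table, or 1.79%. The core TGACGT, which every palindrome contains, was held by 5 of the 8, Scg5 being the other with copies 175 bases before and 39 after the start, and by 2468 of the 32851, or 7.51%. These matches describe letters in a window and say nothing of binding in these cells.

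The arrays lay on 3 slides: slide 1 held 2 knockout and 2 wild-type arrays, slide 2 held 2 knockout arrays and 1 wild-type array, and slide 3 held 4 wild-type arrays. Signals are given on the log2 scale with the 75th percentile of the array, written p75, at 0. Levels of different probes are not comparable. Before scaling, p75 signals lay between 115 and 706 and between 19065 and 26407 probes per array were well above background. Wild-type array 3, the single wild-type array of slide 2, had the lowest p75 and, at 0.877, the lowest median correlation with the rest. It was labelled female, while the knockout arrays were all male. Within slide 2 genotype and sex therefore cannot be told apart. Wild-type array 4 was labelled female but had 3 of 3 Y-linked genes above background, while the other 10 arrays matched their labels. Genotypes were compared with slide as a block. A fitted difference therefore comes from slides 1 and 2, with 4 knockout and 3 wild-type arrays, while slide 3, wild-type array 4 included, enters only the spread. Star itself was lower on the knockout arrays, by a difference of −4.70 ± 0.93 (SE), with an adjusted p in limma of 0.056, above the threshold of 0.05, and its second probe differed by −5.38 with an adjusted p of 0.0367 over separate probes.

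Transcripts of chromaffin granules were present in these sorts, which the labels call adrenocortical cells. Chga reached 9.43 and Chgb 10.42 log2 units above p75 on a wild-type array, and Cyp11a1, the cortical enzyme that makes pregnenolone from cholesterol, was between 2.82 and 4.70 on knockout arrays and between 1.62 and 6.18 on wild-type arrays. None of the 9 members passed the threshold between genotypes, against 0.837% of all 20911 genes and unnamed probes tested, and 1, Scg2, had an unadjusted limma p under 0.05, against 18.4%. All 5 granins had a fitted difference below 0, with a median of −2.24 on the log2 scale. That median moved to −1.20 when knockout array 4 was left out, and to −1.12 when wild-type array 3 was. The 4 neuropeptides had 2 differences below 0 and 2 above, with a median of 0.04. Over all features 57.0% of differences were below 0, and their median was −0.16. Chga, Chgb, Scg2, Scg3, Scg5 and Npy, 6 of the 9, were lower in the knockout within slide 1 and within slide 2, against 37.5% of all features. No member had groups that did not overlap, against 3.23% of all features with every knockout array below every wild-type array and 4.12% with every one above. Without wild-type array 4 again 0 members passed. In these bulk samples fewer chromaffin cells and less of a transcript per cell cannot be told apart.

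**Figure D1:**
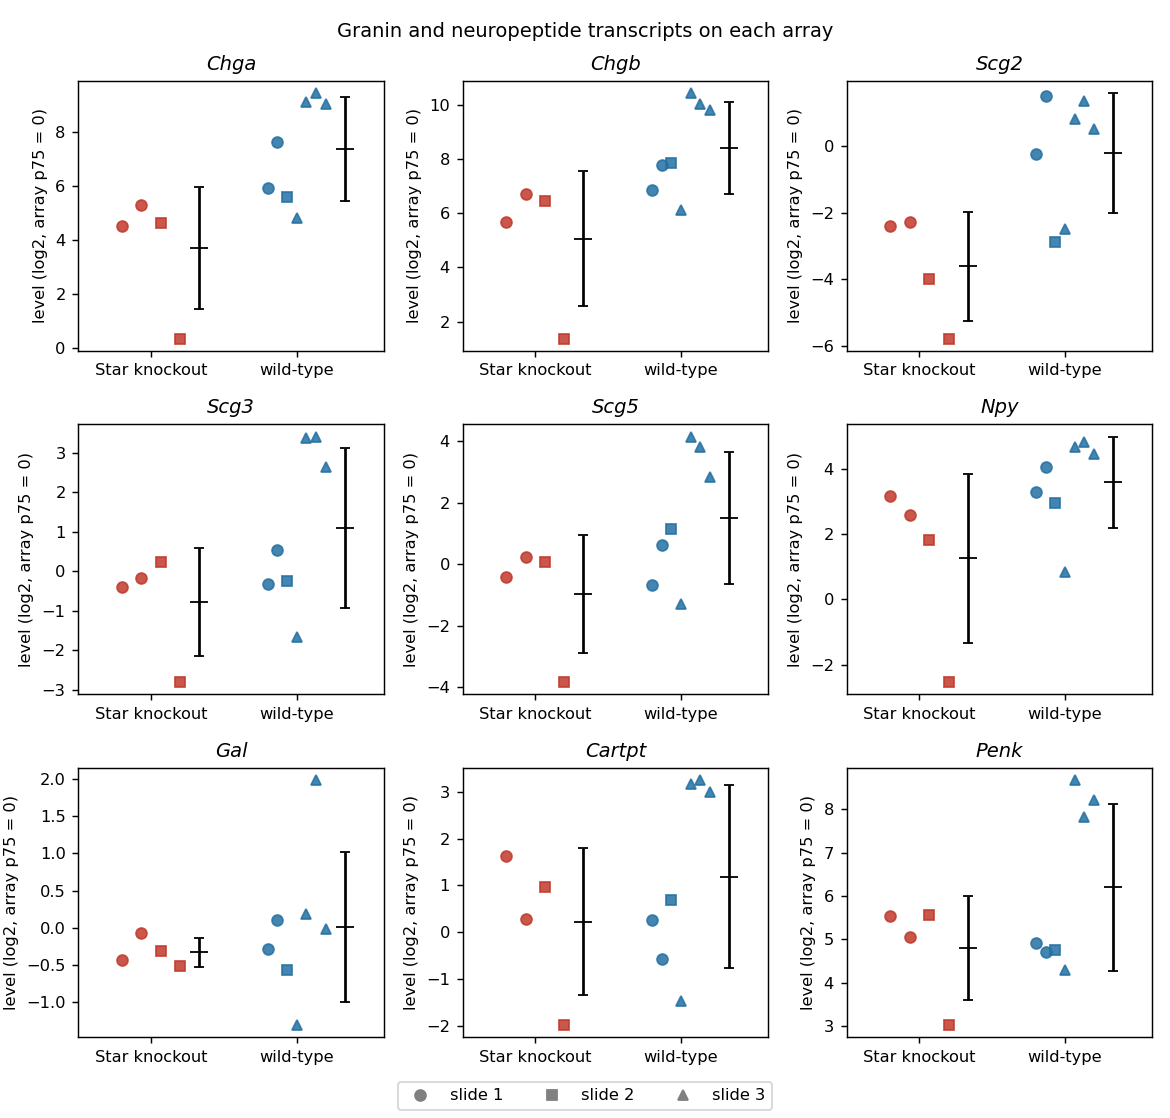
Level of each of the 9 members on every array, as log2 signal with the array's p75 at 0, for Star knockout (4 arrays) and wild-type (7 arrays). Symbols give the slide, and the bar beside each group is the mean ± SD. The square at the bottom of the knockout column of Chga, at 0.34, is knockout array 4, and the 3 highest triangles of the wild-type column are wild-type arrays 5, 6 and 7.

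Chga, the most studied granin and the precursor of catestatin, pancreastatin and the vasostatins, was 4.50 and 5.30 on the knockout arrays of slide 1 and 4.61 and 0.34 on those of slide 2. Wild-type levels were 5.94 and 7.63 on slide 1, 5.61 on slide 2, and 4.80, 9.12, 9.43 and 9.04 on slide 3. Of the 4 knockout arrays 3 lay below all wild-type arrays, and the remaining one, at 5.30, lay above wild-type array 4 alone. The mean was 3.69 ± 2.26 in knockout cells (SD, n = 4) and 7.37 ± 1.91 in wild-type cells (SD, n = 7). The fitted difference was −2.38 ± 1.29 (SE), with a 95% interval of −5.27 to 0.50 and a limma adjusted p of 0.355. It was −1.89 within slide 1 and −3.13 within slide 2. Without knockout array 4 it was −1.59.

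Chgb, the other chromogranin of the granule core, was 5.69, 6.70, 6.46 and 1.38 on knockout arrays 1 to 4, and wild-type levels ran from 6.10 over a median of 7.84 to 10.42. The wild-type arrays that share a slide with knockout arrays stood at 6.86, 7.76 and 7.84, each above the knockout arrays of its own slide. The groups overlapped through wild-type array 4 at 6.10, and 2 of 4 knockout arrays lay below all wild-type arrays. The mean was 5.06 ± 2.49 in knockout cells (SD, n = 4) and 8.40 ± 1.69 in wild-type cells (SD, n = 7). Knockout minus wild-type, the fit gave −2.24 ± 1.36 (SE), with a 95% interval of −5.28 to 0.80 and a limma adjusted p of 0.404. It was −1.12 within slide 1 and −3.92 within slide 2.

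Scg2, the precursor of secretoneurin, had the largest fitted difference of the members and a 95% interval that kept to one side of 0. It was −2.40 and −2.28 on the knockout arrays of slide 1 and −4.00 and −5.78 on those of slide 2, the last of these not well above background. Wild-type levels were −0.24 and 1.50 on slide 1, −2.88 on slide 2, also not well above background, and −2.49, 0.80, 1.34 and 0.51 on slide 3. Wild-type arrays 3 and 4 lay among the knockout arrays, while the other 5 lay above all of them. The mean was −3.62 ± 1.64 in knockout cells (SD, n = 4) and −0.21 ± 1.79 in wild-type cells (SD, n = 7). The fitted difference was −2.59 ± 0.91 (SE), with a 95% interval of −4.62 to −0.55. Its limma p was 0.0178 before adjustment and 0.189 after it, and 10% of all features were lower in the knockout at an unadjusted p under 0.05. Within slides the difference was −2.97 on slide 1 and −2.01 on slide 2. With arrays weighted by their estimated precision, the difference was −3.04 and the adjusted p 0.0143, in a fit that called 1947 features.

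Scg3, which binds chromogranin A and anchors it to the cholesterol-rich membrane of the granule, differed less. It was −0.39, −0.17, 0.24 and −2.80 on knockout arrays 1 to 4, and wild-type levels ran from −1.66 over a median of 0.53 to 3.41. Wild-type arrays 1, 3 and 4, at −0.33, −0.26 and −1.66, stood among the knockout arrays. In the fit, knockout cells differed by −0.64 ± 1.21 (SE), with a 95% interval of −3.34 to 2.07 and a limma adjusted p of 0.811. The value was −0.0873 without knockout array 4, −1.10 without knockout array 3 and −0.38 without wild-type array 3.

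Scg5, also known as 7B2, is the chaperone of the prohormone convertase PC2. Its knockout levels were −0.43, 0.24, 0.08 and −3.83, the last not well above background, and its wild-type levels ran from −1.30 over a median of 1.13 to 4.15. On slide 1 the groups overlapped, with a difference of −0.07, and on slide 2 the difference was −3.00, where knockout array 4 stood far below knockout array 3. The fitted difference was −1.24 ± 1.41 (SE), with a 95% interval of −4.38 to 1.90 and a limma adjusted p of 0.662.

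**Figure D2:**
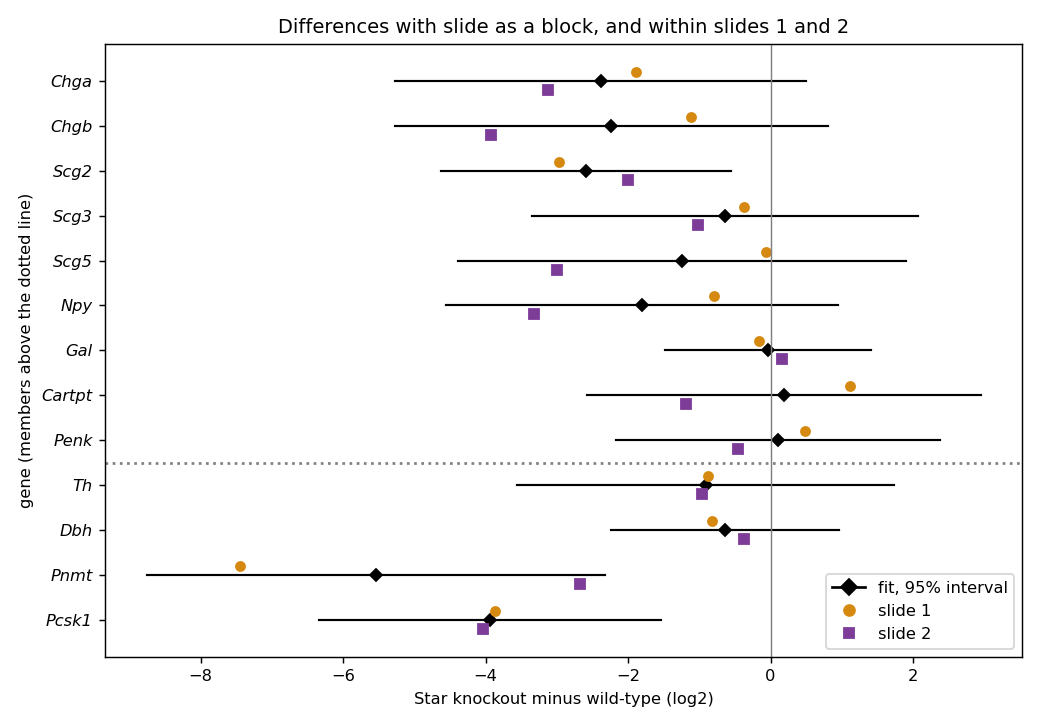
Difference between Star knockout and wild-type in log2 units for the 9 members and, under the dotted line, Th, Dbh, Pnmt and Pcsk1. Diamonds with bars are the fit with slide as a block and its 95% interval, circles are slide 1 and squares slide 2. Of the 9 members, Scg2 alone has an interval that does not reach 0, from −4.62 to −0.55.

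Npy, a vasoconstrictor peptide that chromaffin cells and sympathetic neurons store with catecholamines, had a fitted difference below 0, as the granins had. It was 3.17 and 2.60 on the knockout arrays of slide 1, against 3.28 and 4.07 on the wild-type arrays of that slide, and 1.83 and −2.52 on the knockout arrays of slide 2, against 2.97 on its wild-type array. Slide 3 held wild-type levels of 0.83, 4.67, 4.84 and 4.45. Each knockout array was below the wild-type mean of its own slide, as for Chga, Chgb and Scg2, but wild-type array 4 lay below 3 of the 4. Across slides 1 and 2 the fit gave −1.80 ± 1.23 (SE), with a 95% interval of −4.55 to 0.94 and a limma adjusted p of 0.453.

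Gal, the precursor of galanin, a peptide of endocrine cells and neurons, varied least among the members. It was −0.43, −0.07, −0.31 and −0.51 on knockout arrays, a SD of 0.19, and ran from −1.30 over a median of −0.02 to 1.98 on wild-type arrays, a SD of 1.01. The knockout arrays lay inside the wild-type range. The fitted difference was −0.03 ± 0.65 (SE), with a 95% interval of −1.48 to 1.41.

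Cartpt, the precursor of the CART peptides, had 2 probes. The main probe, A_52_P208649, gave 1.63, 0.28, 0.97 and −1.99 on knockout arrays and 0.25, −0.57, 0.68, −1.48, 3.17, 3.26 and 3.00 on wild-type arrays 1 to 7. Both knockout arrays of slide 1 were above both wild-type arrays of that slide, by 1.11 on average, and on slide 2 the difference was −1.19. The fit gave a difference of 0.19 ± 1.24 (SE), with a 95% interval of −2.57 to 2.95 and a limma adjusted p of 0.952. The second probe, A_51_P416152, gave 1.41, 0.08, 0.77 and −2.48 on knockout arrays and between −1.80 and 2.97 on wild-type arrays, with a difference of 0.08 ± 1.28 (SE). The same arrays were high and low for both probes.

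Penk, the precursor of the enkephalins, also had 2 probes, and these disagreed. The main probe, A_51_P102987, was 5.53, 5.06, 5.57 and 3.02 on knockout arrays, and on wild-type arrays it was 4.93 and 4.71 on slide 1, 4.74 on slide 2, and 4.30, 8.68, 7.83 and 8.21 on slide 3. Knockout arrays 1, 2 and 3 lay above the 4 lower wild-type arrays and below the 3 higher ones. The fitted difference was 0.11 ± 1.02 (SE), with a 95% interval of −2.17 to 2.38 and a limma adjusted p of 0.967. The second probe, A_52_P286166, was −0.49, −1.40, −1.63 and −3.45 on knockout arrays, and on wild-type arrays it ran from −5.43 on array 3, not well above background there, to −0.84 on array 7. Its difference was 1.50 ± 0.63 (SE), with a limma adjusted p of 0.265 over separate probes, and was 0.58 within slide 1 and 2.89 within slide 2, where that wild-type array is the only one. The main probe set wild-type arrays 5, 6 and 7 far above the other wild-type arrays, and the second probe did not.

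**Figure D3:**
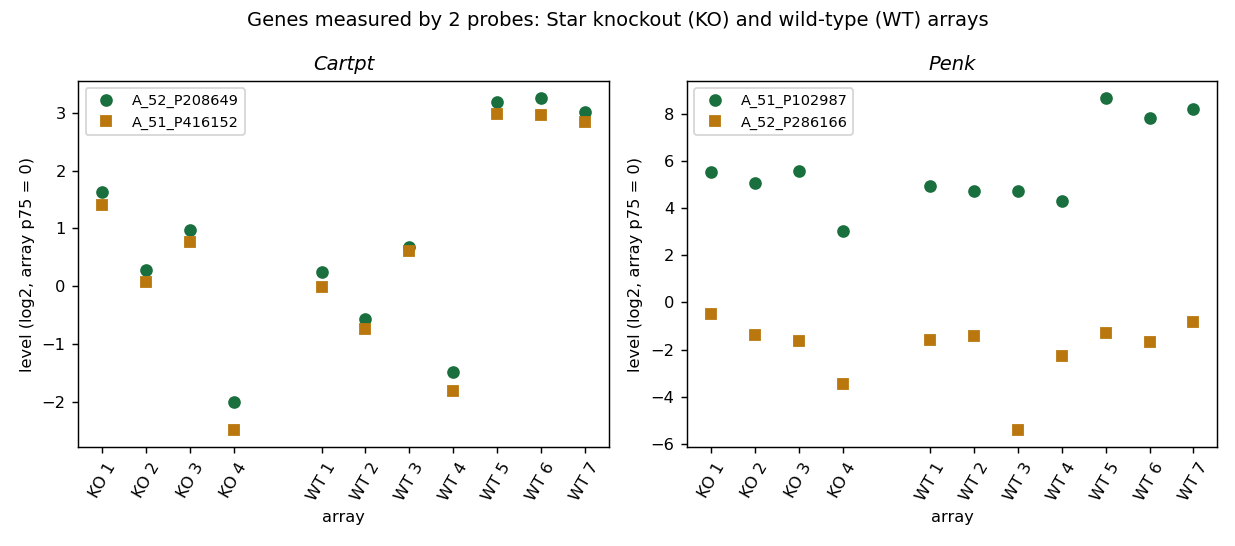
Level on every array, as log2 signal with the array's p75 at 0, of the 2 probes of Cartpt (left) and of Penk (right), with the 4 Star knockout arrays (KO) left of the 7 wild-type arrays (WT). The Cartpt probes move together on all arrays, and the second Penk probe is −5.43 on wild-type array 3, where the first is 4.74.

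For every member the range among wild-type arrays exceeded the fitted difference between genotypes. Over the 11 arrays the range was 9.09 for Chga, 9.04 for Chgb, 7.99 for Scg5, 7.36 for Npy and 7.28 for Scg2, and it was 3.29 for Gal. Knockout array 4 was the lowest array for 8 of the 9 members, Gal being the exception. Wild-type array 4 was the lowest wild-type array for 8 of the 9 members, and wild-type arrays 5 and 6 were in the top 3 of all arrays for all 9. These wild-type arrays lay on 1 slide, and there Chga was 4.80 on wild-type array 4 and between 9.04 and 9.43 on wild-type arrays 5, 6 and 7. Star, a cortical gene, ran the other way on that slide. It was 7.49 on wild-type array 4 and between 3.21 and 4.95 on wild-type arrays 5, 6 and 7. The summed linear level of the cortex list did too, at 1422 against 146 to 310. Sums of other lists rose with the members. They were 348 against 1457 to 2342 for capsule and stroma and 48.7 against 207 to 446.5 for endothelial genes. The macrophage sum was 21.8 against 73.7 to 227. The Schwann cell precursor sum was lowest of the wild-type arrays on array 4. The erythroid sum was 1028 against 1008 to 1351. High levels on wild-type arrays 5, 6 and 7 were thus not particular to the members. Knockout array 4 had 3.94 for Cyp11a1, inside the range of the other knockout arrays. Its p75 before scaling, 190, was the lowest of the knockout arrays. So were its sums for Schwann cell precursor genes, 39.2, endothelial genes, 46.6, capsule and stroma genes, 757, and granule membrane and exocytosis genes, 5.83. Its sums for the cortex list, 259, and the macrophage list, 696, lay among those of the other knockout arrays. The erythroid sum of knockout array 4, 1635, was the highest of them.

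**Figure D4:**
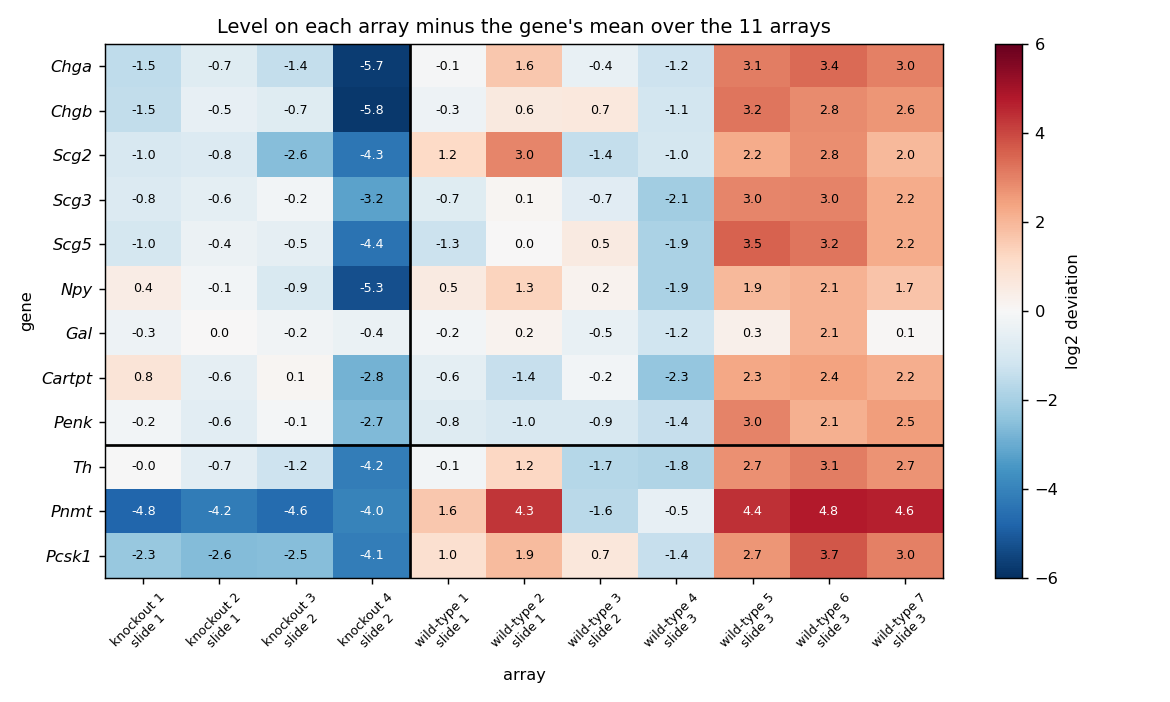
Level of each member, and of Th, Pnmt and Pcsk1, on each array minus the gene's mean over the 11 arrays, in log2 units, with the 4 Star knockout arrays left of the 7 wild-type arrays. Knockout array 4 is the lowest array for 8 of the 9 members, and wild-type arrays 5, 6 and 7 are above the mean in every row. Pnmt and Pcsk1 are below the mean on all 4 knockout arrays.

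Likeness between genes was measured as the root mean square difference of 2 profiles over the 11 arrays after each gene's mean was subtracted, with 0 for identical profiles. For the 3 members with the widest ranges, the nearest of 13535 named genes were named. Chga was nearest to Chgb, at 0.55 log2 units, and then to Tmem130 at 0.61 and Rit2 at 0.66, against a median of 2.72 over all genes. Chgb was nearest to Nap1l5 at 0.53, Ap3b2 at 0.53 and Chga. Scg5 was nearest to Iqsec3 at 0.40, Rit2 at 0.52 and Radx at 0.53. Among the members, Cartpt and Penk lay 0.55 apart, Scg3 and Penk 0.55, and Scg3 and Scg5 0.59, while Gal lay 1.36 to 2.16 from the other 8 and Cartpt 1.86 from Scg2. Th, the tyrosine hydroxylase that starts catecholamine synthesis, lay between 0.72, from Scg3, and 1.17 from 8 of the members and 1.72 from Gal. Pnmt lay 2.09 to 3.53 from all 9. The median distance over all tested features, unnamed probes included, differed by member, from 1.19 for Gal to 2.76 for Chga. Th thus lay farther from Gal than that median. Pnmt lay nearer than the median to Chga, at 2.21, to Scg2, at 2.09 against 2.47, and just nearer to Chgb, at 2.61 against 2.63. It lay farther than the median from the other members. All these distances are descriptions over arrays that also share slide and genotype.

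The genes of catecholamine synthesis and storage also had differences below 0, and none passed the threshold. All 9 of the list were tested, 0 passed in either direction, against 0.607% of all features higher and 0.23% lower, and 2 were lower at an unadjusted p under 0.05, against 10% of all features. The median of the 9 differences, each of them below 0, was −0.94. Pnmt, which makes adrenaline, was −4.16, −3.62, −4.00 and −3.44 on knockout arrays, and ran from −1.04 over a median of 4.90 to 5.34 on wild-type arrays. Its groups did not overlap. Its fitted difference was −5.54 ± 1.44 (SE), with a limma adjusted p of 0.107, and it was −7.45 within slide 1 and −2.68 within slide 2. Gch1, which makes the cofactor of tyrosine hydroxylase, differed by −1.16 ± 0.44 (SE) with an adjusted p of 0.219, and its second probe by −0.17. Slc18a1, the vesicular monoamine transporter of chromaffin granules, differed by −1.51 ± 0.78 (SE), and Cyb561, the cytochrome of their membrane, by −1.64 ± 0.81 (SE). As for Pnmt, every knockout array was below every wild-type array for Gch1 and for Cyb561. Of all features, 3.23% were separated in this way. Th was 0.70, 0.05, −0.52 and −3.47 on knockout arrays and ran from −1.11 to 3.78 on wild-type arrays, with a difference of −0.91 ± 1.19 (SE). Dbh, which makes noradrenaline, differed by −0.64 ± 0.72 (SE). When each array was left out, Th ran from −1.40 to −0.41, Dbh from −1.06 to −0.13 and Slc18a1 from −2.13 to −0.50, with the values nearest 0 without knockout array 4, wild-type array 2 and wild-type array 3. The summed linear level of the 9 genes was between 4.24 and 15.0 times p75 on knockout arrays and between 15.8 and 164 on wild-type arrays.

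Of the machinery that cuts the members into peptides, 9 of 10 genes were tested and 0 passed. Pcsk1, the convertase PC1/3, had the largest difference of the list. It was −4.13, −4.45, −4.40 and −5.99 on knockout arrays, well above background on 3 of 4, and −0.90, 0.04, −1.16, −3.26, 0.81, 1.85 and 1.16 on wild-type arrays. The groups did not overlap, and the difference was −3.93 ± 1.07 (SE), −3.86 within slide 1 and −4.03 within slide 2, with a limma adjusted p of 0.119. Its second probe, above background on 1 knockout and 3 wild-type arrays, gave 0.09 ± 1.40 (SE). Without wild-type array 4, which enters only the spread, the limma adjusted p of the main probe was 0.0103, and that of Pnmt 0.0321. That fit called 571 of all features, against 175 in the main fit. With any other array left out neither gene passed, with adjusted p in limma up to 0.713 for Pcsk1 and 0.312 for Pnmt. Cpd, a carboxypeptidase of the trans-Golgi network, differed by 1.39 ± 0.47 (SE), and its second probe by 0.28. The protease Ctsl differed by 1.28 ± 0.57 (SE) and Furin, the convertase of the constitutive pathway, by −0.64. The median over the list was −0.56.

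Of 20 genes of granule membrane and exocytosis 12 were tested, of 15 other secretory peptides 6, and of 12 receptors of the member peptides 4. Syt4, a synaptotagmin of dense-core granules, differed by −1.95 with a limma adjusted p of 0.301, Syt7 by −0.74 and Rab3a, a GTPase of secretory vesicles, by −0.99. Another probe differed by −1.02 for Syt4 and by −0.14 for Syt7. Somatostatin, Sst, differed by −0.77 with a limma adjusted p of 0.227, but was well above background on only 2 knockout and 2 wild-type arrays. Vamp2, a vesicle SNARE, differed by 1.52 on its main probe but by −0.54 and −0.50 on its other probes. Neurotensin, Nts, differed by −1.11, Calca, the precursor of calcitonin and CGRP, by −0.74 and Pomc by −0.37, none past the threshold. The second Calca probe differed by 1.15. Among the receptors, Galr2, well above background on 2 knockout and 4 wild-type arrays, differed by −0.65 and Galr3 by −0.57. The opioid growth factor receptor, Ogfr, differed by 1.46, which was −0.36 within slide 1 and 4.18 within slide 2. The medians were −0.56 for granule membrane and exocytosis, −0.55 for the other peptides and −0.61 for the receptors. Over all features, 0.837% passed the threshold. The receptor Npy2r, through which neuropeptide Y inhibits its own release, was the single gene of these 3 lists past the threshold. On none of the knockout arrays was it well above background, and it met the filter on dim probes through 5 of 7 wild-type arrays alone, so that its call rests on a gene the filter admitted by its high group. Its limma adjusted p of 0.0276 belongs to a fitted difference of −3.54, which uses the knockout signals as measured. As a bound, the receptor was at least 2.38-fold lower in the knockout. For this bound, knockout signals were raised to the lowest level well above background on their arrays, and no p was computed. The call was lost when any 1 of the 7 arrays of slides 1 and 2 was left out, with adjusted p over the 11 fits that leave out 1 array between 0.0161 and 0.312.

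**Figure D5:**
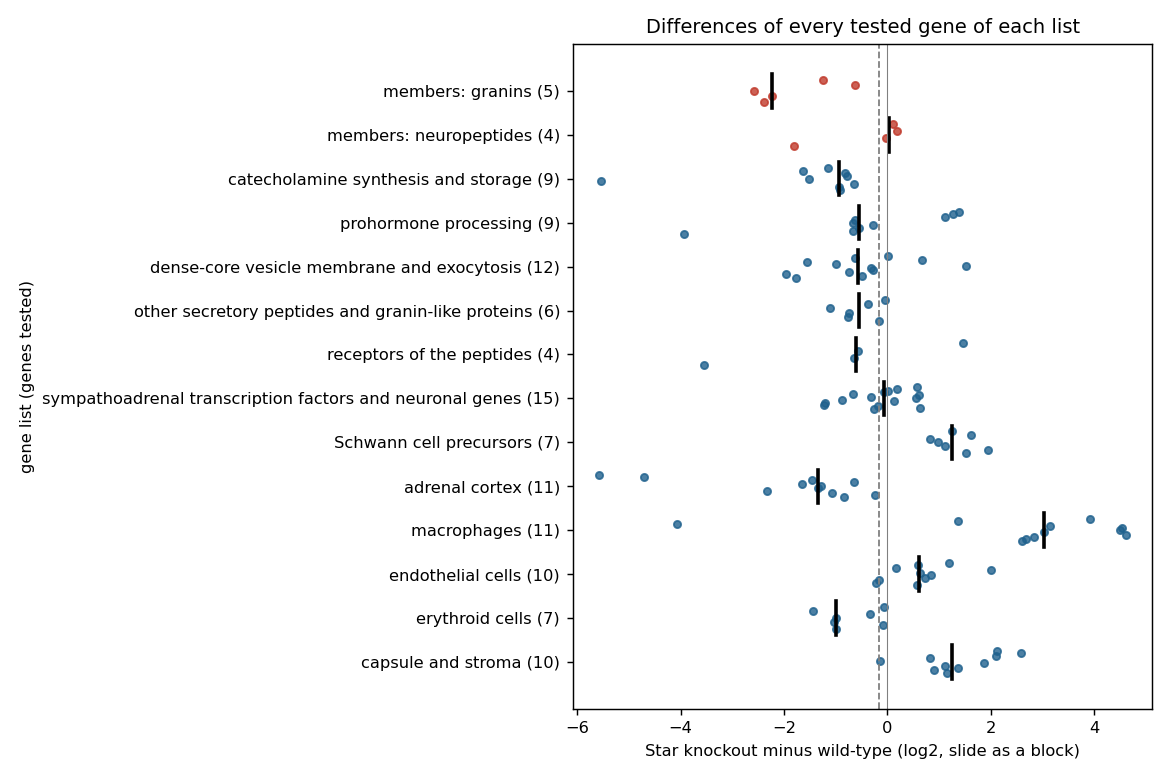
Difference between Star knockout and wild-type, in log2 units with slide as a block, of every tested gene of the members (red) and of 12 other gene lists (blue), with the number tested in brackets. Black bars are list medians and the dashed line is the median over all features, −0.16. The 5 granins are all left of 0, with a median of −2.24, and the macrophage list has a median of 3.02.

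The levels of markers of other cells that such a sort could hold stand beside these values. Of 11 tested macrophage genes 3 passed, all higher in the knockout, against 0.607% of all features. Of the 11 differences 10 were above 0, against 8995 of the 20911 over all features. The remaining gene, Cd163, a scavenger receptor named here after its value was seen, differed by −4.06 ± 1.44 (SE) with an adjusted p of 0.193, −6.56 within slide 1 and −0.32 within slide 2. Trem2, a lipid-sensing receptor, differed by 3.92 ± 0.50 and Lyz2, lysozyme, by 4.62 ± 0.78 (SE), and Spi1, a myeloid transcription factor not above background on any wild-type array, was at least 2.55-fold higher but met the filter through the knockout arrays alone. Tyrobp, the signalling adaptor of Trem2, differed by 4.54 with an adjusted p of 0.065. None of these 3, and neither Npy2r nor Nr0b1, passed when wild-type array 1 or 3 or knockout array 1 or 4 was left out. The list's summed linear level was between 593 and 1046 times p75 on knockout arrays, against 21.8 to 227 on wild-type arrays. Macrophage genes were above background on all knockout arrays for 11 of 11 and on all wild-type arrays for 8 of 11. Of 9 Schwann cell precursor genes 7 were tested, with 0 past the threshold and all 7 differences above 0, with a median of 1.25. Foxd3, a neural crest transcription factor, differed by 1.95 ± 0.80 (SE) with an adjusted p of 0.239, Ngfr by 1.61 and Gfra3 by 1.25. The second Ngfr probe differed by −0.28. The 15 tested sympathoadrenal transcription factors and neuronal genes had 0 past the threshold and a median of −0.06, with Tfap2b at −0.87, Gata3 at −1.21, Gata2 at −1.22 and Nefm, a neurofilament, at 0.57. Tfap2b was above background on 2 knockout and 4 wild-type arrays, and Nefm on 2 knockout and 5 wild-type arrays. Another probe differed by −0.40 for Tfap2b and by −1.74 for Gata2. The adrenal cortex list had 1 of 11 past the threshold, against 0.23% of all features lower. This was the nuclear receptor Nr0b1, lower in the knockout by a difference of −5.58 ± 0.89 (SE). The list had a median of −1.34, with a summed level of 165 to 544 on knockout arrays and 146 to 1715 on wild-type arrays. It holds Star, the gene deleted in the knockout, which enters that median and those sums. Hsd3b1, a steroid dehydrogenase, differed by −2.32 and Mrap, the accessory protein of the ACTH receptor, by −1.65. Cyp11a1 differed by −0.23 ± 0.87 (SE), its second probe by 0.51, and Nr5a1, the steroidogenic factor, by −0.84 ± 0.55 (SE). Of endothelial genes 0 of 10 passed, with a median of 0.61, of erythroid genes 0 of 7, with a median of −0.99, and of capsule and stroma genes 0 of 10, with a median of 1.26. The summed level of the 5 granins was between 4.10 and 146 times p75 on knockout arrays and between 97.3 and 1951 on wild-type arrays, and that of the 4 neuropeptides was between 9.24 and 59.0 on knockout arrays and between 22.3 and 446 on wild-type arrays. Such sums, here and for the other lists, follow mainly the probes of highest signal. Among the granins these are Chgb and Chga, and among the neuropeptides Penk. The part of these other cells in the granin values was not tested.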

How the data were processed

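Sorted fetal adrenal cells gave amplified, Cy3-labelled RNA for 1 Agilent array per mouse, per the labels. The intensity of each spot in the deposited files had its background subtracted by Agilent Feature Extraction, in version 10.5.1.1 for slide 3 and 10.1.1.1 for slides 1 and 2, per the file headers. The submitters' processing notes name 10.5.1.1 alone. The authors also deposited log2 values, which matched p75-scaled levels minus each probe's median to within 0.01 for at least 99.8% of probes on every array. Column medians of these ran between −0.166 and 0.902.

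The labels gave genotype, sex, age and replicate, and the array identity gave the slide. Outlier spots (77 to 164 per array) were dropped, 0 probes were saturated, processed signals were taken to log2 and averaged over the spots of a probe, and p75, the 75th percentile over the array's 41174 non-control probes, was subtracted. Accessions in the files were named through a RefSeq table of GRCm38.p6: 24836 probes had a symbol and 16338 had none. File headers name the design builds mm8 and mm9, so no gene coordinates were mixed with them. A gene was its probe with the highest mean, tested if well above background on at least 4 of 11 arrays. The fit used lmFit and eBayes of limma 3.58.1 under R 4.3.3, with terms for genotype and slide and 7 residual degrees of freedom, two-sided; p was adjusted by Benjamini-Hochberg over 20911 genes and unnamed probes, at a threshold of 0.05. The fit was tested on simulated data, with 50 changed genes at each size of change. It called 0% of those changed 2-fold, 30% at 4-fold, 68% at 8-fold and 70% at 16-fold, with 3 false calls. No mouse gave more than 1 array, and precision is limited by their number. Where a gene was above background on no array of a genotype, its fold change is given as a bound, for which no p was computed.

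The members and the gene lists were chosen with earlier results of these data known. Named were all members, the up to 4 genes of each list with the smallest p (endothelial, erythroid and stromal lists are given as counts, and 1 gene of the other lists is not reported here), Th, Dbh, Pnmt, Cyp11a1 and Nr5a1, and the 3 genes nearest in profile to each of the 3 members of widest range. Replicate numbers did not establish pairs: deviations of same-numbered arrays correlated at 0.18, 0.22, −0.01 and 0.18. Alternatives changed the block (none, random, replicate number), added sex, used normexp with an offset of 50, other scalings, filters, probe rules or priors, array weights, outlier spots or the authors' table, or left out each array, with statmod 1.5.0 and version 1.17.8 of data.table. Summaries used pandas 2.3.3, numpy 2.4.6 and scipy 1.17.1, and figures matplotlib 3.10.9, in Python 3.11.15.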

Additional observations from a re-analysis of the deposited data

Results flagged for a closer look

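In 22 groups of levels, 1 for each of the 11 member probes in each genotype, the highest and the lowest array were compared with the rest by Dixon's ratio of the gap to the range, and in 3 groups the ratio was above its 95% critical value; chance gives about 1 in 20. For Chga, knockout array 4 was at 0.34, with the nearest knockout array at 4.50 and the farthest at 5.30, a ratio of 0.840. For Scg5, knockout array 4 was at −3.83, with the nearest at −0.43, a ratio of 0.835. For the second Penk probe, A_52_P286166, wild-type array 3 was at −5.43, with the nearest wild-type array at −2.28, a ratio of 0.685. Knockout array 4 and wild-type array 3 share slide 2, and wild-type array 3 is the single array against which the knockout arrays of that slide were set.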

How the results depend on the processing

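The number of members past the threshold was 0 in 30 of 31 alternatives and 1, Scg2, with estimated array weights. The fits within slide 1 and within slide 2 are among the 30 and called 0 of 20911 features, so they say nothing of the members' stability. The median difference over the members lay between −2.32 with no slide term and −0.38 within slide 1, and was below 0 in all 31. With male arrays only, where the difference comes from slide 1 alone, that median was also −0.38. Chga, Chgb, Scg2, Scg3, Scg5 and Npy had a difference below 0 in every alternative run, and Gal, Cartpt and Penk changed sign in some, none past the threshold in either direction; the cause was not tested. Gal was 0.16 within slide 2, 0.00218 with sex as a term, 0.19 with sex and without wild-type array 4, and 0.00634 scaled to the array median, and −0.16 to 0.095 when each array was left out. Cartpt was −0.97 with no slide term, −0.43 with slide as a random block and −1.19 within slide 2, and −0.38 to 1.11 when each array was left out. Penk was −1.41 with no slide term, −0.70 with slide as a random block, −0.45 within slide 2 and −0.10 with sex as a term, and −0.26 to 0.59 when each array was left out. With the replicate block in place of slide, 0 members passed, the median difference was −0.93 and Gal was 0.18. Leaving out wild-type array 3 gave −1.12 for Chgb, −0.79 for Npy and −0.07 for Scg5, and leaving out knockout array 4 gave −1.59 for Chga, −1.20 for Chgb and −0.91 for Npy. Of the other genes named, Cyp11a1 was 1.27 and Nr5a1 0.11 within slide 2, Calca was 0.0191 there, and Vamp2 was −0.0284, Pomc 0.20 and Ogfr −0.36 within slide 1; when each array was left out Cyp11a1 ran from −1.24 to 0.20, Calca from −1.59 to 0.0234, Vamp2 from −0.0284 to 2.06, Pomc from −0.62 to 0.20, Ogfr from −0.36 to 2.03 and Nefm from −0.0812 to 1.29. Calls over all features, 175 with slide as a block, were 599 with no slide term, 28 with sex as a term, 186 with the replicate block, 641 with the normexp background and 1947 with array weights, and 10 to 571 when each array was left out. Scg2 on knockout array 4 and wild-type array 3 and Scg5 on knockout array 4 were not well above background, which limits how low those levels can be read.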
